A study of Mus musculus with 4 samples.

Results

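Lipoprotein lipase and the proteins that carry its products into fat cells were followed as a set of 10 genes named by function: the lipase gene Lpl, its folding factor Lmf1, its capillary anchor Gpihbp1, its inhibitor Angptl4, the fatty acid carriers Cd36, Fabp4, Slc27a1 and Slc27a4, and the lipoprotein receptors Vldlr and Lrp1. All 10 were found by symbol among the 55487 genes of the deposited table. RNA was sequenced from adipocytes isolated from the perigonadal fat pad of male mice on a standard diet, with 2 libraries from CKO mice and 2 from littermate controls whose genotype label reads WT. The title of the series concerns the transcriptional repressor BLIMP1, encoded by Prdm1, in macrophages; the sources used here do not name the deleted gene, the driver of the deletion, the age of the mice or whether a library came from a single animal. The comparison asks how these genes differ between the CKO and the WT preparation.

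Fat cells take up much of their fatty acids from circulating triglyceride. Lipoprotein lipase is made inside the tissue by adipocytes and also by macrophages, is folded in the endoplasmic reticulum with the help of LMF1, and is carried across the capillary wall by GPIHBP1 of endothelial cells to the vessel surface, where it releases fatty acids from lipoproteins. ANGPTL4, a fasting-induced protein of fat, unfolds the enzyme and so limits uptake. CD36 and the FATP proteins of the SLC27 family assist entry of fatty acids, FABP4 binds them in the cytosol, and VLDLR and LRP1 bind lipoprotein particles.

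No member differed between the groups past the adjusted threshold. Gpihbp1, Fabp4 and Angptl4 were higher in both CKO libraries than in both WT libraries, and Lrp1 and Slc27a4 were lower in both. The other 5 members, among them Lpl and Cd36, overlapped between the groups. At an adjusted p under 0.05 in limma, 0 of 10 members and 0 of 16871 genes tested (0%) were called. With an unadjusted limma p under 0.05, 0 members were higher (3.35% of all genes tested) and 1 was lower (7.26% of all genes tested), which was Lrp1. The 3 members with both CKO libraries above both WT libraries stand beside 23.9% of all genes, and the 2 members below beside 26.8%, so these counts are near the background. The median log2 change of the 10 members was -0.016, against 0.015 over all genes tested. Without WT replicate 2, 4 members were above WT in both CKO libraries (34.1% of all genes) and 3 below (35.2%). Leaving out WT replicate 1 left Lrp1 as the 1 member called, lower in CKO, in a fit that called 5.56% of all genes as lower and 4.96% as higher.

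Read totals ranged from 24152081 to 26742547 per library. WT replicate 2 stood apart in its cell type markers, and each member's change was also computed without it. The 12 adipocyte markers summed to 990667 and 453160.2 scaled reads in CKO replicates 1 and 2, and to 452607 and 92830.2 in WT replicates 1 and 2. Of the 12, 5 were higher in both CKO libraries (23.9% of all genes) and 1 was lower in both (26.8%). The latter was Lep, with 13439 and 21437 scaled reads in CKO and 59962 and 26504 in WT. Cfd alone gave 511557 scaled reads of the sum in CKO replicate 1. The 16 macrophage markers summed to 37106 and 100803 scaled reads in CKO and to 237995 and 730075 in WT, and 14 of the 16 were lower in both CKO libraries than in both WT libraries (26.8% of all genes). The 14 endothelial markers summed to 95921 and 147015 in CKO and to 87997 and 30927 in WT, and 9 of the 14 were higher in both CKO libraries (23.9% of all genes). None of the markers in these 3 lists was at 0 reads over the libraries. In a bulk preparation, fewer cells of a type and less RNA per cell cannot be told apart. The part of these marker differences in the results below was not tested. Prdm1 had 152 and 349.6 scaled reads in CKO and 534 and 1193 in WT, a log2 change of -1.79 (SE 0.59; limma adjusted p 0.459). The 16 macrophage markers had a median log2 change of -2.54 in the same libraries. Why Prdm1 was lower was not tested.

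Levels of different genes were compared per transcript length, as reads over transcript length, scaled to the same total in every library (TPM). Fabp4, Cd36 and Lpl were the most abundant of the members, and Lmf1, Slc27a4 and the receptors Lrp1 and Vldlr the scarcest. Fabp4 was highest in each library, from 9887 to 39712 TPM. Cd36 followed, from 4123 to 5016, and Lpl was next, from 2231 to 4097. Gpihbp1 ranged from 485 to 2842, Angptl4 from 363 to 1279.6 and Slc27a1 from 261 to 533. Lrp1 ranged from 36.0 to 135, Lmf1 from 25.1 to 35.1, Slc27a4 from 11.9 to 14.0 and Vldlr from 4.15 to 13.6. In this order of mean levels, the ranges of neighbours overlapped for Lpl and Gpihbp1, Gpihbp1 and Angptl4, Angptl4 and Slc27a1, and Slc27a4 and Vldlr. The 10 members together held 3.49% ± 0.078 of all reads in CKO and 2.51% ± 0.58 in WT (SD, n = 2). Fabp4, Lpl and Cd36 alone held 3.11% ± 0.11 in CKO and 2.22% ± 0.52 in WT. Of these genes only Fabp4 was higher in both CKO libraries, so the shares do not describe the members in general.

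**Figure D1:**
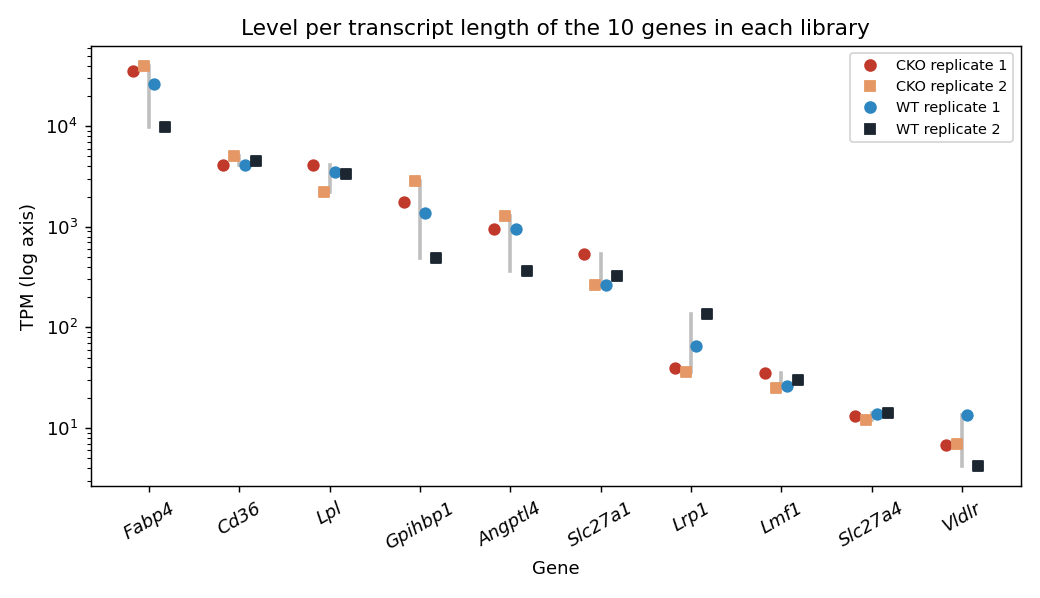
TPM of each member in each library on a log axis, with members ordered by their mean and a grey line from the lowest to the highest library. Fabp4 leads in every library, and Vldlr and Slc27a4 are the lowest; Gpihbp1, Angptl4 and Fabp4 have their lowest point in WT replicate 2, and Lrp1 its highest.

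Lpl, which encodes the enzyme itself (chromosome 8 of GRCm38, from 68880491 to 68907448, plus strand), overlapped between the groups. It had 224289 and 113808 scaled reads in CKO replicates 1 and 2 and 188431 and 199515 in WT replicates 1 and 2. The CKO libraries lay on either side of the WT libraries, which were close to each other. Group means were 169048 ± 78122 for CKO and 193973 ± 7838 for WT (SD, n = 2). On the log2 scale the change was -0.28 (SE 1.13), with a 95% interval of -3.20 to 2.64 and a limma adjusted p of 0.923. Without CKO replicate 2 it was 0.21.

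The level of Lpl departed from that of the adipocyte gene Adipoq in WT replicate 2. In the other libraries both genes ran in the same order, from CKO replicate 1 through WT replicate 1 to CKO replicate 2. Adipoq, the adiponectin gene, had 71564 and 39344 scaled reads in CKO and 46129.7 and 7950.0 in WT. There were 3.13 and 2.89 Lpl reads per Adipoq read in the CKO libraries, 4.08 in WT replicate 1 and 25.1 in WT replicate 2. Adgre1, which encodes the macrophage protein F4/80, had 1386 and 2813 scaled reads in CKO and 8381 and 33520.1 in WT, so WT replicate 2 combined the lowest Adipoq with the highest Adgre1 and a level of Lpl close to that of WT replicate 1.

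Lmf1, the folding factor that newly made lipase needs (chromosome 17, from 25579085 to 25662826, plus strand), was as scattered within the groups as between them. It had 867 and 579 scaled reads in CKO and 644 and 808 in WT. The CKO libraries were the highest and the lowest of the 4. The means were 723 ± 203 and 726 ± 116 (SD, n = 2), a log2 change of -0.026 (SE 0.31) with a 95% interval of -0.83 to 0.78 (limma adjusted p 0.975).

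Gpihbp1, the endothelial protein that anchors the lipase in capillaries (chromosome 15, from 75596628 to 75599481, plus strand), had the largest positive change of the members. It had 19435 and 29071 scaled reads in CKO and 14949 and 5732 in WT. Both CKO libraries were above both WT libraries, and WT replicate 2 was lowest. Group means were 24253 ± 6813 for CKO and 10341 ± 6517 for WT (SD, n = 2), a ratio of 2.35. The log2 change was 1.36 (SE 0.59), with a 95% interval of -0.15 to 2.88 and a limma adjusted p of 0.459. It was 0.67 without WT replicate 2 and 2.05 without WT replicate 1.

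Gpihbp1 stood in the same order across the libraries as Pecam1. Pecam1, the endothelial adhesion molecule also called CD31, had 12389 and 19005 scaled reads in CKO and 12329 and 4549.6 in WT, so both genes were highest in CKO replicate 2 and lowest in WT replicate 2. Per Pecam1 read there were 1.57 and 1.53 Gpihbp1 reads in CKO and 1.21 and 1.26 in WT. This ratio was nearly equal within each group and higher in both CKO libraries, which held for 3.05% of all genes set against Pecam1 in the same way. Of the 13 other endothelial markers, 6 were likewise higher per Pecam1 read in both CKO libraries, 2 were lower in both (46.5% of all genes) and 5 overlapped. Kdr, a VEGF receptor gene picked out after its values were seen, had 1.50 and 1.37 reads per Pecam1 read in CKO and 0.952 and 0.886 in WT. Relative to the whole list of endothelial markers, Gpihbp1 was at 0.203 and 0.198 reads in CKO and 0.170 and 0.185 in WT. No test was run on these ratios.

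Angptl4, the lipase inhibitor (chromosome 17, from 33773750 to 33781830, minus strand), was higher in CKO mainly against WT replicate 2. It had 42144 and 52473 scaled reads in CKO and 40928 and 17175 in WT. The lower CKO library and WT replicate 1 were close to each other. The means were 47308 ± 7304 and 29052 ± 16796 (SD, n = 2), a log2 change of 0.83 (SE 0.64) with a 95% interval of -0.82 to 2.47 (limma adjusted p 0.572). Without WT replicate 2 the change was 0.20, and without WT replicate 1 it was 1.45. There were 0.188 and 0.461 Angptl4 reads per Lpl read in CKO and 0.217 and 0.0861 in WT, so the balance of inhibitor and enzyme transcripts overlapped between the groups.

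**Figure D2:**
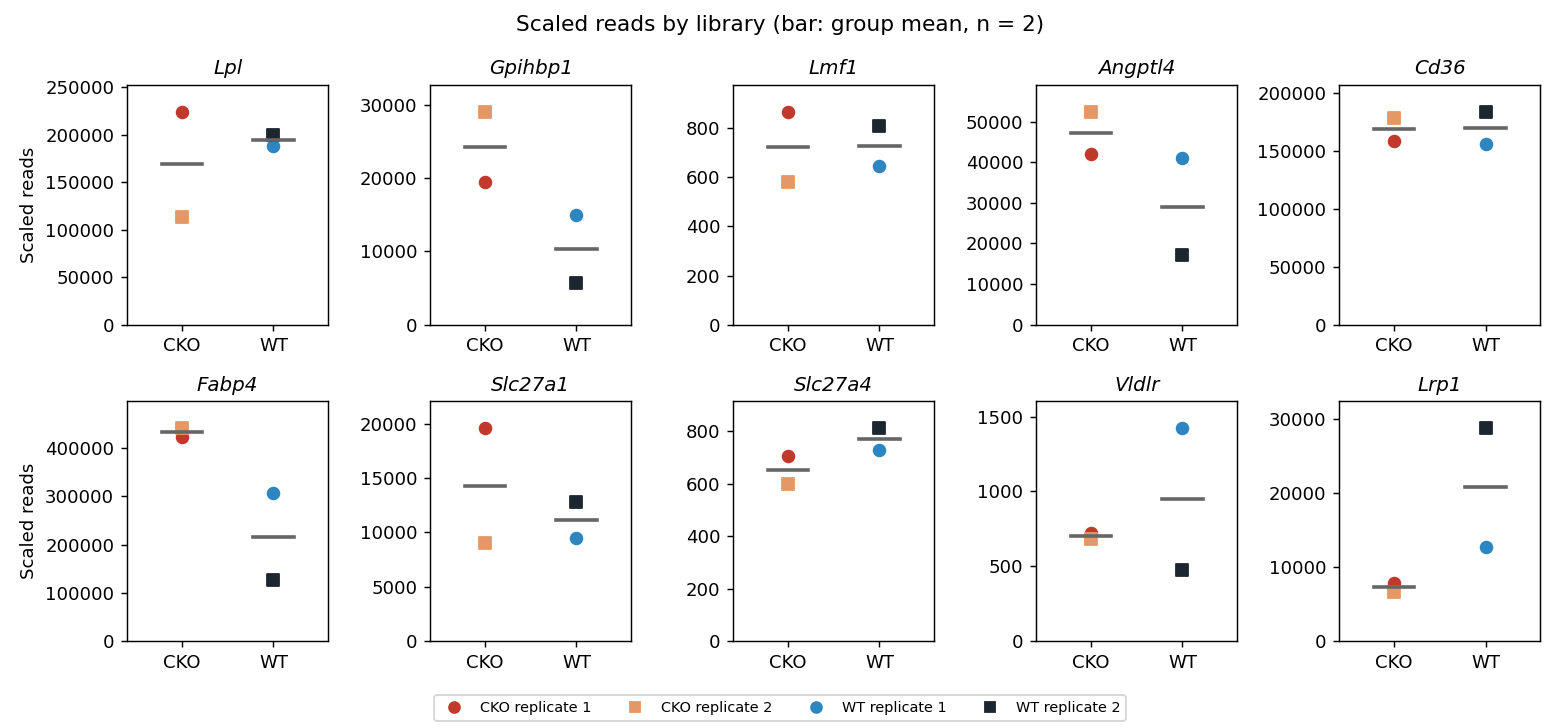
Scaled reads of the 10 members by group, with 1 point per library and a bar at the group mean; each panel has its own axis from 0. The CKO points lie above the WT points for Gpihbp1, Angptl4 and Fabp4 and below them for Slc27a4 and Lrp1, and WT replicate 2 is the lowest point for Gpihbp1, Angptl4, Fabp4 and Vldlr.

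Fabp4, the fatty acid binding protein of the adipocyte cytosol, which capillary endothelium and macrophages also make (chromosome 3, from 10204088 to 10208576, minus strand), was the most abundant member. It had 423301 and 441099 scaled reads in CKO and 305868 and 126859 in WT. The CKO libraries were nearly equal, and the WT libraries were far apart and both lower. The means were 432199.9 ± 12585 and 216364 ± 126578 (SD, n = 2), a ratio of 2.00. The log2 change was 1.13 (SE 1.49), with a 95% interval of -2.71 to 4.97 and a limma adjusted p of 0.733. It was 0.50 without WT replicate 2 and 1.77 without WT replicate 1.

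Fabp5, the family member that macrophages also make, was picked out after its values were seen. It had 2283 and 4847 scaled reads in CKO and 4664 and 8626 in WT, and the groups overlapped. There were 185 and 91.0 Fabp4 reads per Fabp5 read in CKO and 65.6 and 14.7 in WT.

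Cd36, a scavenger receptor that assists fatty acid entry and is made by adipocytes, endothelium and macrophages (chromosome 5, from 17781690 to 17888801, minus strand), had the smallest change of the members. It had 158599 and 178637 scaled reads in CKO and 155479.6 and 183882 in WT, so that each group held a lower and a higher library and the CKO libraries lay inside the WT range. The log2 change was -0.0065 (SE 1.07), with a 95% interval of -2.76 to 2.75 (limma adjusted p 0.998). Within the groups its log2 SD was 0.12 in CKO and 0.17 in WT. Across the same libraries Cd36 reads per Adipoq read were 2.22 and 4.54 in CKO, 3.37 in WT replicate 1 and 23.1 in WT replicate 2.

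The standard errors of Fabp4, Cd36 and Lpl were set largely by the trend of variance with abundance in the fit. Without that trend they were 0.51, 0.29 and 0.43, and the limma adjusted p values were 0.492, 0.992 and 0.778, so none of these genes was called either way.

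Slc27a1, which encodes FATP1, the insulin-responsive transporter of adipocytes (chromosome 8, from 71568882 to 71587302, plus strand), was set apart by a single library. It had 19589 and 8999 scaled reads in CKO and 9473 and 12776 in WT. CKO replicate 1 was the highest library and CKO replicate 2 the lowest. The means were 14294 ± 7488 and 11125 ± 2336 (SD, n = 2), a log2 change of 0.27 (SE 0.50) with a 95% interval of -1.01 to 1.55 (limma adjusted p 0.814). The change was -0.29 without CKO replicate 1 and 0.83 without CKO replicate 2. CKO replicate 1 was also the library with the highest sum of adipocyte markers.

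Slc27a4, which encodes FATP4, a family member found on internal membranes with acyl-CoA synthetase activity (chromosome 2, from 29802634 to 29817522, plus strand), was scarce and steady. It had 708 and 599.6 scaled reads in CKO and 729 and 813 in WT. Both CKO libraries were below both WT libraries by a small margin. The means were 654 ± 76.8 and 771 ± 59.3 (SD, n = 2), a log2 change of -0.24 (SE 0.24) with a 95% interval of -0.87 to 0.39 (limma adjusted p 0.663). Slc27a1 had 27.7 and 15.0 reads per Slc27a4 read in CKO and 13.0 and 15.7 in WT, so the paralogues kept nearly the same proportion in 3 libraries and departed from it in CKO replicate 1.

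**Figure D3:**
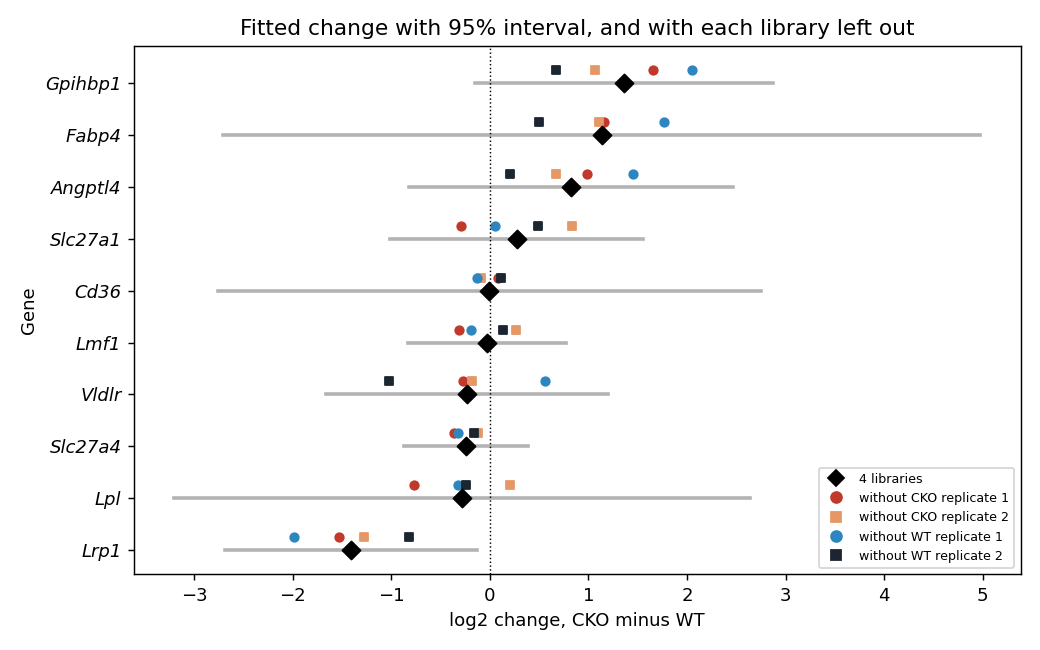
Log2 change of each member, CKO minus WT, as a black diamond with its 95% interval from the fit, and the change with each library left out as a coloured point above it. The interval of Lrp1 lies below 0 and the other 9 cross it; the points for Gpihbp1, Fabp4, Angptl4, Slc27a4 and Lrp1 stay on one side of 0.

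Lrp1, a large endocytic receptor for lipoprotein remnants and many other ligands, made by adipocytes and strongly by macrophages (chromosome 10, from 127538161 to 127621148, minus strand), had the lowest p of the members. It had 7908 and 6643 scaled reads in CKO and 12767 and 28800.2 in WT. The CKO libraries were close together and both below WT, and WT replicate 2 was by far the highest. Group means were 7276 ± 894 for CKO and 20783 ± 11337 for WT (SD, n = 2), a ratio of 0.350. The log2 change was -1.40 (SE 0.49), with a 95% interval of -2.68 to -0.13, an unadjusted p of 0.0370 and an adjusted p of 0.459 in limma. It was -0.82 without WT replicate 2. Without WT replicate 1 it was -1.99 with a limma adjusted p of 0.0444, from a fit that takes the single remaining WT library to be as variable as the CKO pair.

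Lrp1 and Adgre1 were in the same order in the libraries except between the CKO replicates. The lowest Adgre1 was in CKO replicate 1 and the lowest Lrp1 in CKO replicate 2, while WT replicate 2 was highest for both. Mrc1, a mannose receptor gene of the macrophage list picked out after its values were seen, had the order of Lrp1. It had 1655 and 1579.7 scaled reads in CKO and 2854 and 9349 in WT. No other gene of that list had this order. The other macrophage markers lower in both CKO libraries were lowest in CKO replicate 1, like Adgre1. Cd163 and Mertk overlapped between the groups. Lrp1 spanned a smaller range than Adgre1, with 5.70 and 2.36 Lrp1 reads per Adgre1 read in CKO and 1.52 and 0.859 in WT. An antisense gene, Gm16217, lies opposite Lrp1 without touching its exons and had 1 to 5 reads per library.

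Vldlr, the receptor that binds very low density lipoproteins beside the lipase (chromosome 19, from 27216484 to 27254231, plus strand), had WT libraries on either side of the CKO libraries. It had 723 and 680.3 scaled reads in CKO and 1423 and 474 in WT. The means were 702 ± 30.4 and 948 ± 671 (SD, n = 2), a log2 change of -0.23 (SE 0.55) with a 95% interval of -1.66 to 1.20 (limma adjusted p 0.864). It was -1.02 without WT replicate 2 and 0.56 without WT replicate 1.

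Set against Adipoq, 9 of the 10 members were highest in WT replicate 2. Gpihbp1 was the exception, at 0.739 reads per Adipoq read in CKO replicate 2 and 0.721 in WT replicate 2. Adipoq itself was lowest in WT replicate 2, at 7950.0 scaled reads, with 39344 in the next lowest library, CKO replicate 2. The share of all genes highest there per Adipoq read was not computed, so this count is not read as a trait of the members. Lpl, Slc27a4, Vldlr and Lrp1 (4 of 10) were lower per Adipoq read in both CKO libraries than in both WT libraries, which held for 28.1% of all genes, and 0 members were higher, which held for 0.913%. Lrp1 had 0.111 and 0.169 reads per Adipoq read in CKO and 0.277 and 3.62 in WT. Vldlr had 0.0101 and 0.0173 in CKO and 0.0308 and 0.0596 in WT.

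**Figure D4:**
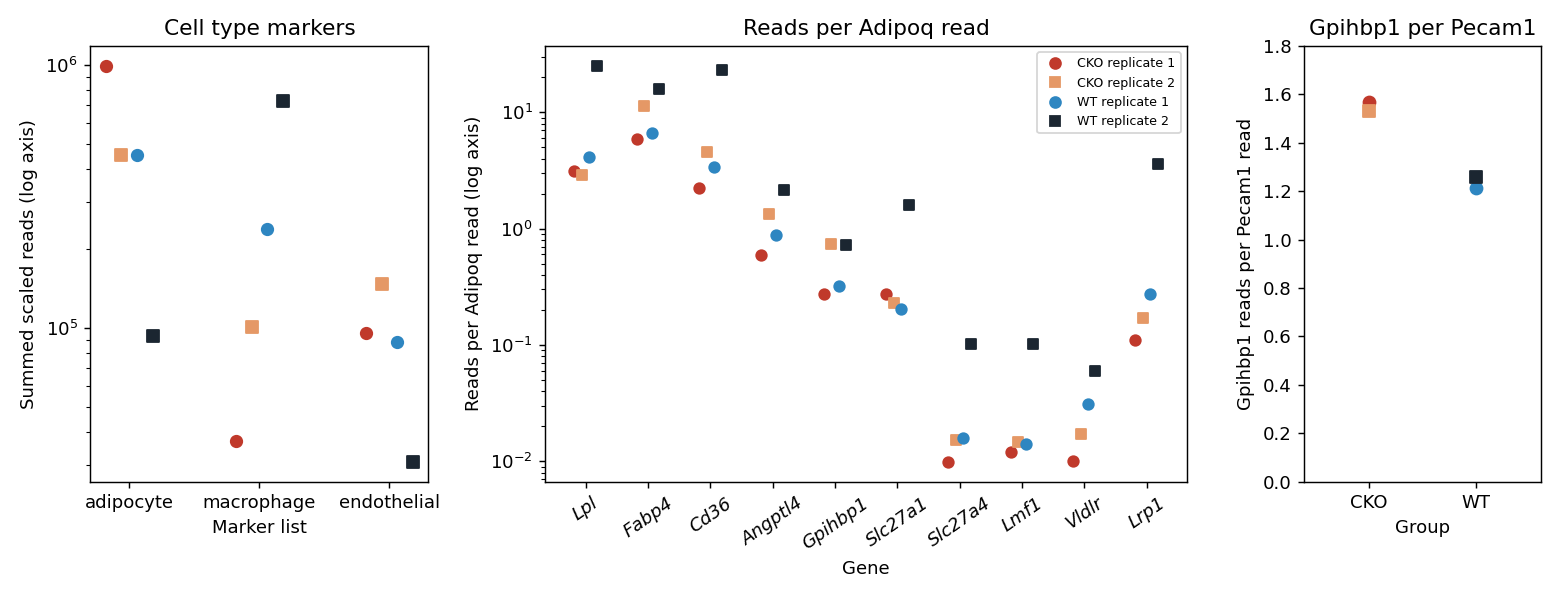
Left, summed scaled reads of the adipocyte, macrophage and endothelial marker lists in each library on a log axis; middle, reads of each member per Adipoq read on a log axis; right, Gpihbp1 reads per Pecam1 read from 0. WT replicate 2 has the lowest adipocyte and endothelial sums and the highest macrophage sum. It is the highest point for 9 of the 10 members in the middle panel, where the denominator Adipoq is lowest in that library. The Gpihbp1 ratios are 1.57 and 1.53 in CKO and 1.21 and 1.26 in WT.

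Promoter letters were available for 6 of the 10 members, from RefSeq on GRCm38.p6; Lpl, Gpihbp1, Angptl4 and Fabp4 had no entry. The 250 bases upstream of the start are shown for Lrp1, the member of lowest p (chr10:127621149-127621398, minus strand), for Cd36, the member of smallest change (chr5:17835897-17836146, minus strand), and for the paralogues Slc27a1 (the first of its RefSeq starts, chr8:71568621-71568870, plus strand) and Slc27a4 (chr2:29802384-29802633, plus strand). The Cd36 window lies inside the span given for the gene above, since RefSeq's start is internal to it. Capitals mark the GC box GGGCGG, the CCAAT box CCAAT, and AGGTCA, the core of many nuclear receptor sites, each on either strand.
Lrp1: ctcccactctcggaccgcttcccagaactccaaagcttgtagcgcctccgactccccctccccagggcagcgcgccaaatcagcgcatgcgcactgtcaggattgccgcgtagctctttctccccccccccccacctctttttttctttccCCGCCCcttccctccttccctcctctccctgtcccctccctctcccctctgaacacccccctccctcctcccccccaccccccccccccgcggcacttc
Cd36: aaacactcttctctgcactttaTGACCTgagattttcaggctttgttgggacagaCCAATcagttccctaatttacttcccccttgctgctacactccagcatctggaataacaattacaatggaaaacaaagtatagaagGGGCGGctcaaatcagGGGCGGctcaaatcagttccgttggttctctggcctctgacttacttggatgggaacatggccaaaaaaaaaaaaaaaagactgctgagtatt
Slc27a1: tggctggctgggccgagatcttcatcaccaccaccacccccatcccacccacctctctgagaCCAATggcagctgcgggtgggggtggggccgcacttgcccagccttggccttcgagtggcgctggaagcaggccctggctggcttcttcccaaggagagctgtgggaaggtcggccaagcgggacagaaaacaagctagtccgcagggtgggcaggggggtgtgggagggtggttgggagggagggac
Slc27a4: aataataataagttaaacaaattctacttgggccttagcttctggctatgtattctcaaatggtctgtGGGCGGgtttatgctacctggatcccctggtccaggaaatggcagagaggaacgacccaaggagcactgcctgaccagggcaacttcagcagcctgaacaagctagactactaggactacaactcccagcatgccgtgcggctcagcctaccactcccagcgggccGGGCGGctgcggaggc

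The windows differ in base composition and in these letters. GC content was 67.2% for Lrp1, 66.4% for Slc27a1, 54.4% for Slc27a4 and 43.2% for Cd36, against a median of 52.4% over 32851 windows. Cd36 held 2 GC boxes, 1 CCAAT box and 1 AGGTCA, Slc27a4 held 2 GC boxes, Lrp1 held 1 GC box on the opposite strand, and the Slc27a1 window shown held 1 CCAAT box and no GC box. The windows of the 2 later Slc27a1 starts, not shown, held 1 and 3 GC boxes, with a GC content of 60.8% and 58.4%. Of all windows of this length, 32.7% held a GC box, 33.8% a CCAAT box and 14.0% an AGGTCA. The TATA box TATAAA was in 12.4% of windows and in none of these 4, and the full PPAR element (AGGTCA repeated with 1 base between) was in 0.033% and in none of these 4. A match describes letters in this window and is not a binding site.

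Other genes of lipase folding, transport and control, listed by function, were split in direction. Lipc, Lipg, Lipe, Pnpla2 and Mgll encode other lipases and were counted in the list. All of these but Lipc were higher in CKO. Of 21 tested, 10 were higher and 11 lower (median log2 change -0.040), 1 was higher (3.35% of all genes) and 2 lower (7.26%) with an unadjusted limma p under 0.05, and 0 passed the adjusted threshold. Sdc1, the heparan sulphate proteoglycan syndecan-1, had 423 and 1415 scaled reads in CKO and 3088 and 9328 in WT, a log2 change of -2.79 (SE 0.78). Lipg, the endothelial lipase gene, had 238 and 140.4 scaled reads in CKO and 75.8 and 17.9 in WT, a log2 change of 2.27 (SE 0.79). Sorl1, an intracellular sorting receptor, had 336 and 309 in CKO and 699 and 572 in WT, a log2 change of -0.97 (SE 0.27). For all 3 genes, named for their low unadjusted p, the groups did not overlap, and the limma adjusted p was 0.459 each. Of the 21 tested, 4 were higher in both CKO libraries (23.9% of all genes) and 5 lower in both (26.8%). Apoa5 and Apoc2, which encode apolipoprotein cofactors of the lipase, were at 0 reads in all libraries. Overlap with other genes was examined for the members only, and why Apoa5 and Apoc2 had no reads was not tested.

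The other fatty acid uptake and activation genes were also evenly split, with 7 of 14 tested higher and 7 lower (median -0.020). With an unadjusted limma p under 0.05, 0 were higher (3.35% of all genes) and 1 lower (7.26%), and 0 passed the adjusted threshold. The latter was Fabp7, the brain type binding protein, with 15.0 and 52.5 scaled reads in CKO and 112 and 311 in WT, a log2 change of -2.68 (SE 0.82). Acsl5 and Acsl3, which encode acyl-CoA synthetases and were named for their low p, had log2 changes of -0.68 (SE 0.28) and -0.82 (SE 0.37). Each had both CKO libraries below both WT libraries, as did 5 of the 14 tested (26.8% of all genes), while 3 were above (23.9%). The limma adjusted p of these 3 genes was 0.459 each.

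Among the other lipoprotein receptors and their regulators, 9 of 14 tested were lower and 5 higher (median -0.14). Both CKO libraries were below both WT libraries for 6 of the 14 (26.8% of all genes) and above them for 4 (23.9%). With an unadjusted limma p under 0.05, 2 were lower (7.26% of all genes) and 0 higher (3.35%), and 0 passed the adjusted threshold. Lrp12, a relative of Lrp1, had 465 and 510.0 scaled reads in CKO and 1060.2 and 3182 in WT, a log2 change of -1.91 (SE 0.55). Lsr, a receptor of remnant lipoproteins known from liver, was scarce, with 16.0 and 38.0 in CKO and 60.2 and 115 in WT, a log2 change of -1.71 (SE 0.64). The limma adjusted p of both genes was 0.459, and each was highest in WT replicate 2, like Lrp1.

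The PPAR family, whose member PPAR gamma drives many uptake genes of fat, and its partners had 8 of 10 genes higher and 2 lower (median 0.56). Both CKO libraries were above both WT libraries for 5 of the 10 (23.9% of all genes) and below them for 1 (26.8%). With an unadjusted limma p under 0.05, 1 was higher (3.35% of all genes) and 0 lower (7.26%), and 0 passed the adjusted threshold. Ncor1, a corepressor, had 6970.4 and 6774 scaled reads in CKO and 4736 and 3573 in WT, a log2 change of 0.74 (SE 0.28; limma adjusted p 0.459). Ppara and Ppargc1a had log2 changes of 1.30 (SE 0.63) and 1.33 (SE 0.68), with limma adjusted p values of 0.460 and 0.471. Pparg itself, named after its values were seen, had 11174 and 10286 scaled reads in CKO and 9568 and 5401 in WT, a log2 change of 0.58 (SE 0.39; limma adjusted p 0.533). The 12 adipocyte markers had a median log2 change of 1.70 in the same libraries.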

How the data were processed

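The deposited table holds a symbol, an Ensembl identifier and 4 columns, which the authors name normalised counts on a log2 scale. Replicate numbers were assigned here by column order within each group. The columns run CKO replicate 1, WT replicate 1, WT replicate 2 and CKO replicate 2. The aligner was STAR 2.7.5c and the genome GRCm38.p6, per the submitters' processing notes; the sources used here do not name the counter, its annotation or its use of strand. In the deposited log2 values, 2 to the value minus 1 was whole within 0.01 for 100% of genes, so these are log2(reads + 1), unscaled.

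Reads were divided by median-ratio size factors (0.951 to 1.10, over 19847 genes). Log2(scaled reads + 1) entered limma 3.58.1 under R 4.3.3 (group alone, eBayes with a trend, two-sided) for 16871 genes with a mean deposited log2 of at least 3, Benjamini-Hochberg adjusted. Intervals use 2 residual and 2.92 prior degrees of freedom. Low genes' changes are understated by the pseudocount. All 10 members passed the filter.

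TPM used the mean length of GENCODE M21 principal transcripts. Coordinates are from the same annotation, on GRCm38, 1-based. Identifiers matched for 55094 genes (99.3%).

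The members and lists were chosen with earlier results of these data known. Named were all members, and from each other pathway list the genes at an unadjusted p under 0.05, or the 3 of smallest p; 1 item of the receptor list is not reported here and is left out of its counts. Marker lists for fibroblasts, smooth muscle, mesothelium, skeletal muscle, lymphocytes and red cells had median log2 changes of -0.21, 0.84, 0.16, -0.47, 1.27 and 2.17. These medians rest on 10, 7, 7, 2, 4 and 5 genes tested. The 2 skeletal muscle genes changed in opposite directions. All 5 red cell genes were higher in both CKO libraries than in both WT libraries (23.9% of all genes). The labels do not say whether libraries are separate animals, so p-values cover only the spread among these libraries, which may be technical.

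The fit was tested on simulated reads with less spread within a group than Gpihbp1, Angptl4, Fabp4, Lrp1, Vldlr, Slc27a1 and Lmf1 had in WT. The simulated spread was also below that of Lpl, Slc27a1, Lmf1 and Gpihbp1 in CKO. How the fit performs at that larger spread was not examined.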

Additional observations from a re-analysis of the deposited data

How the results depend on the processing

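Over 13 other settings, 112 member values kept their direction and their side of the threshold, 17 changed direction and 1, Lrp1 without WT replicate 1 (-1.99), passed the threshold. Gpihbp1, Angptl4 and Fabp4 changed sign only with size factors from adipocyte markers, where they stayed above the median of all genes, and Slc27a4 and Lrp1 in no setting. Genes past the threshold ranged from 0 to 1775, and members past it from 0 to 1, over the left-out libraries; both upper values came without WT replicate 1, where 837 genes were higher and 938 lower. Over the left-out libraries the median change of the members ranged from -0.28 (without CKO replicate 1) to 0.24 (without CKO replicate 2). Members above WT in every library ranged from 3 to 6 over the left-out libraries (34.1% to 43.1% of all genes) and members below from 2 to 5 (35.2% to 43.3%), a check chosen after seeing the data; the 6 came without CKO replicate 2 (38% of all genes) and the 5 without CKO replicate 1 (35.3%).

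Size factors from the adipocyte markers alone moved the median of all genes to -1.68 and that of the members to -1.73. Gpihbp1, Angptl4, Fabp4 and Slc27a1 were then at -0.35, -0.89, -0.58 and -1.44, which is 1.33, 0.79, 1.10 and 0.24 relative to that median. Unscaled values moved the median of all genes to 0.15 and scaling by total reads to 0.099; Lmf1 and Cd36 stayed below both medians. They were 0.11 and 0.13 with unscaled values, 0.059 and 0.078 with scaling by total reads, and 0.038 and 0.33 with quantile normalisation. Under quantile normalisation the median of all genes was 0.063, with Lmf1 below it and Cd36 above it. With each library left out, Lpl ranged from -0.77 to 0.21, Lmf1 from -0.32 to 0.26, Cd36 from -0.13 to 0.11, Slc27a1 from -0.29 to 0.83 and Vldlr from -1.02 to 0.56. The cause was not tested. Left-out fits kept the filter and size factors of the 4 libraries.

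No paired analysis was possible because the labels give no replicate numbers that tie a CKO library to a WT library. At least 451 reads stood behind every member in every library.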
